A study of Mus musculus with 2 samples.

Results

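Wnt signaling in the liver is set by secreted ligands, by R-spondins that raise the response to them and by antagonists that blunt it. The 10 genes described here were *Wnt2*, *Wnt9b* and *Rspo3*, known as signals from liver endothelial cells, the ligands *Wnt5a*, *Wnt6* and *Wnt16*, and the antagonists *Sfrp1*, *Sfrp2*, *Dkk2* and *Apcdd1*, known from stromal cells. They are 10 of 48526 genes in the table and were chosen by name with the levels and ratios of this same comparison known, so that every value below is a description and none is a test of the choice. Bulk polyA RNA of liver tumors was sequenced in 1 library from *Fabp4*-/- mice and 1 library from WT littermates. All mice were C57BL/6N males. Each had received the hepatocarcinogen N-nitrosodiethylamine (DEN, 25 mg/kg) when 14 days old, followed by 29 weeks of high-fat diet (HFD) that began at an age of 6 weeks. *Fabp4*, the targeted gene, had 1 read pair in the *Fabp4*-/- library and 1786 read pairs in the WT library. The depth was 59600850 read pairs for *Fabp4*-/- and 56353665 for WT, as estimated from the table. The numbers of animals and nodules behind each library are not given in the sources used here. No difference has a replicate check, therefore, and no p-value is given.

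Wnt ligands are lipid-modified glycoproteins that bind Frizzled receptors and LRP co-receptors at the cell surface, and the canonical branch of the pathway stabilises β-catenin. R-spondins bind LGR receptors and keep the ubiquitin ligases RNF43 and ZNRF3 from removing Frizzled. In the mouse liver, endothelial cells of the central vein supply *Wnt2*, *Wnt9b* and *Rspo3* to the hepatocytes around them, which is known to hold up the pericentral gene program. Secreted frizzled-related proteins bind Wnt ligands, Dickkopf proteins bind the LRP co-receptors, and APCDD1 is a membrane protein that inhibits the pathway.

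The antagonists were nearly absent from the *Fabp4*-/- tumor library, the endothelial ligands were not lower there, and the other ligands went in opposite directions. The 4 antagonists summed to 0.12 TPM (a length-corrected share of all transcripts) in *Fabp4*-/- and 9.01 TPM in WT, from 23 and 959 read pairs, a log2 ratio of summed normalised counts of −5.02 (95% interval −5.68 to −4.42). The 3 endothelial ligands summed to 3.41 TPM in *Fabp4*-/- and 2.88 TPM in WT, from 446 and 316 read pairs, a log2 ratio of 0.86 (0.65 to 1.07). The 3 other ligands summed to 1.41 TPM in *Fabp4*-/- and 2.34 TPM in WT, with 168 and 358 read pairs and a 1.66-fold lower summed normalised count. These sums hide opposite directions only among the other ligands. Ratios are given on 2 scales, *Fabp4*-/- over WT. The log2 ratio of the authors' normalised counts carries a 95% exact binomial interval from the read pairs, which covers counting error only. The log2 ratio of TPM + 0.5 understates the difference of genes near or below 0.5 TPM, as most of these are. The median over the 13557 genes of at least 1 TPM in the higher library was −0.46 by TPM and 0.04 by normalised counts, so that a gene at the median has a ratio lower by 0.50 on the TPM scale.

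**Figure D1:**
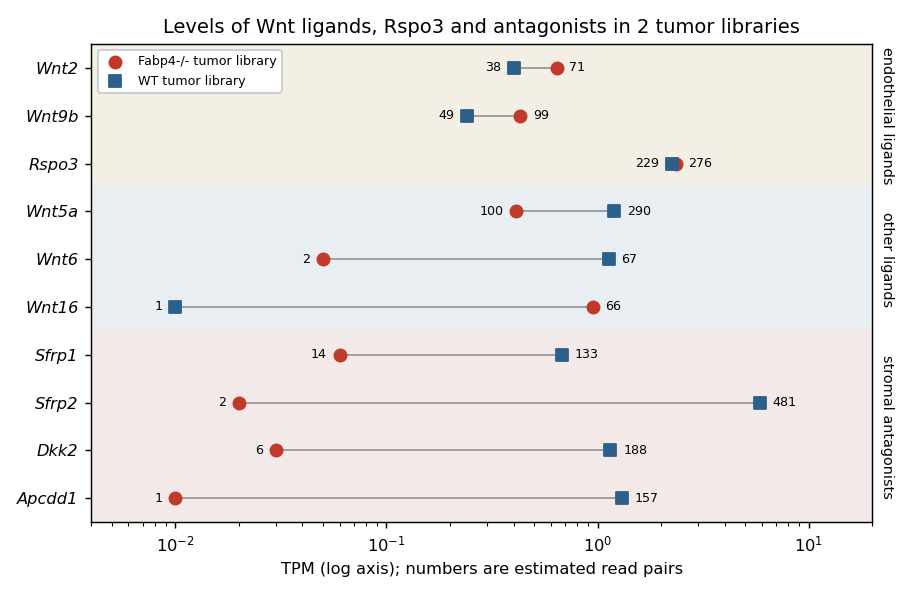
Level of each of the 10 genes in TPM (log axis) in the *Fabp4*-/- library (circles) and the WT library (squares), with the estimated read pairs beside each point. The antagonists sit at 0.06 TPM or less in *Fabp4*-/- and at 0.68 TPM or more in WT, while *Rspo3* is nearly level.

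By normalised counts 6 of the 10 genes lay 2-fold or more below WT in *Fabp4*-/- and 3 lay 2-fold or more above it, with *Rspo3* in between. Among the 13557 genes, which had to reach 1 TPM and were counted with 1 added to each normalised count, 7.34% lay that far below and 5.63% that far above. Of the 10 genes, the 6 that reached 1 TPM held 5 that far below and 0 that far above by normalised counts. By TPM + 0.5 only the 6 genes that reached 1 TPM in the higher library were counted, of which 4 were at least 2-fold lower and 0 higher, where the share over the 13557 genes was 14.2% lower and 2.18% higher. *Wnt2*, *Wnt9b*, *Wnt16* and *Sfrp1* were below that minimum in both libraries. A second background was drawn from the 3830 protein-coding genes with a mean level of 0.3 to 3 TPM, a range set after the values of these 10 genes were seen and within which all 10 lie. In it 18.7% lay lower and 5.93% higher by 2-fold or more in normalised counts, and the median gene was at −0.27 on the log2 scale. Past 16-fold the background was thin, 0.94% lower and 0.261% higher, whereas 4 of the 10 genes lay past 16-fold lower and 1 past 16-fold higher. Since the genes were picked with these ratios in view, nothing is read from that contrast.

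**Figure D2:**
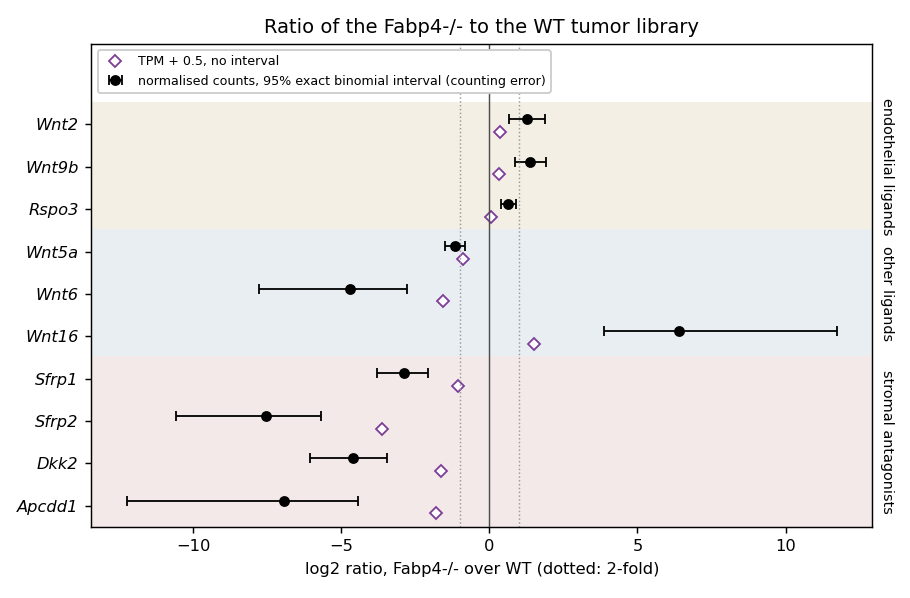
Log2 ratio of *Fabp4*-/- over WT for each gene, by normalised counts (filled, with the 95% exact binomial interval for counting error) and by TPM + 0.5 (open). The 2 scales share their sign for all 10 genes, and the intervals widen where a library had 1 or 2 read pairs.

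*Wnt2* (ENSMUSG00000010797.6, chromosome 6 of mm10, 17988940 to 18030585, minus strand) encodes a canonical ligand. It was at 0.64 TPM in *Fabp4*-/- and 0.40 TPM in WT, from 71 and 38 read pairs. The log2 ratio was 1.27 by normalised counts (interval 0.68 to 1.87) and 0.34 by TPM + 0.5. *Wnt9b* (chromosome 11, 103727364 to 103749821, minus strand), the other ligand of central vein endothelium, was at 0.43 TPM in *Fabp4*-/- and 0.24 TPM in WT, from 99 and 49 read pairs. Its log2 ratio was 1.38 (interval 0.87 to 1.90) and 0.33 by TPM + 0.5. The library without *Fabp4* thus held the higher level of each ligand on either scale, with intervals above 0. *Rspo3* (chromosome 10, 29453109 to 29535867, minus strand) was the best covered of these genes in *Fabp4*-/-. It was at 2.34 TPM in *Fabp4*-/- and 2.24 TPM in WT, from 276 and 229 read pairs. By normalised counts its log2 ratio was 0.63 (interval 0.38 to 0.89), and by TPM + 0.5 it was 0.05. Set against the median gene, *Rspo3* stood 0.59 above it by normalised counts and 0.51 above it by TPM.

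The endothelial ligands were set beside endothelial markers of the same libraries. The 12 pan-endothelial markers, among them the platelet adhesion molecule gene *Pecam1*, *Egfl7* and *Eng*, summed to 126 TPM in *Fabp4*-/- and 148 TPM in WT, with log2 ratios of normalised counts + 1 from −0.28 to 0.60. *Wnt2*, *Wnt9b* and *Rspo3*, at 1.24, 1.36 and 0.63 with the same count added, lay above all 12 of them. The 12 sinusoidal markers were higher, with a median of 0.65 and a range from −0.42 to 1.36, and summed to 130 TPM in *Fabp4*-/- and 129 TPM in WT. Of those 12, 11 lay below *Wnt2*, 11 below *Wnt9b* and 6 below *Rspo3*. The sinusoidal marker above *Wnt2* and *Wnt9b* was *Oit3*, at 5.42 TPM in *Fabp4*-/- and 3.12 TPM in WT. The 10 markers of larger vessels, such as *Plvap*, *Efnb1* and *Ednrb*, had a median of 0.16, and *Plvap* was at 33.7 TPM in *Fabp4*-/- and 44.2 TPM in WT. Of those 10, 9 lay below each of *Wnt2*, *Wnt9b* and *Rspo3*. *Sele*, named after its values were seen, lay above all 3, at 0.63 TPM in *Fabp4*-/- and 0.26 TPM in WT. No endothelial marker on the 3 lists was at 0 in either library. The lower interval bounds of *Wnt2* and *Wnt9b*, 0.68 and 0.87, cover counting error only and are within the range of the sinusoidal markers. Both ligands were chosen with their ratios known, so nothing is read from their place among the markers. In bulk RNA, fewer cells of a type and less RNA per cell cannot be told apart, and the part that the makeup of the endothelium has in these ratios was not tested.

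*Wnt5a* (chromosome 14, 28504750 to 28527447, plus strand), a ligand known above all for the β-catenin-independent branch, was the most abundant Wnt gene of the WT library. It was at 0.41 TPM in *Fabp4*-/- and 1.20 TPM in WT, from 100 and 290 read pairs, a log2 ratio of −1.17 by normalised counts (interval −1.52 to −0.84) and −0.90 by TPM + 0.5. *Wnt6* (chromosome 1, 74771892 to 74785322, plus strand), a canonical ligand of epithelia, was at 0.05 TPM in *Fabp4*-/- and 1.13 TPM in WT, from 2 and 67 read pairs. That is a 26.0-fold lower normalised count with an interval of 6.93-fold to 219-fold. *Wnt16* (chromosome 6, 22288227 to 22298522, plus strand), a ligand best known from bone and the hematopoietic niche, ran the other way. It had 0.95 TPM in *Fabp4*-/- and 0.01 TPM in WT, from 66 read pairs and 1 read pair, an 84.9-fold higher normalised count with an interval of 14.7-fold to 3405-fold. Among 13027 protein-coding genes with at least 50 read pairs in the higher library, 6 had a higher ratio than *Wnt16* and 40 a lower ratio than *Wnt6*.

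The order of the Wnt genes by TPM, which is per transcript length, differed between the libraries. In *Fabp4*-/- the highest were *Wnt16* with 22.7% of the summed TPM of all Wnt ligand genes, *Wnt5b* with 21.1%, *Wnt2* with 15.3% and *Wnt9b* with 10.3%. In WT they were *Wnt5a* with 20.3%, *Wnt6* with 19.1% and *Wnt5b* with 17.6%. *Wnt5b*, a close relative of *Wnt5a*, was at 0.88 TPM in *Fabp4*-/- and 1.04 TPM in WT, from 90 and 94 read pairs, so that it lay close to *Wnt16* in *Fabp4*-/- and to *Wnt5a* and *Wnt6* in WT, and the order among these neighbours has no replicate check. All 19 Wnt genes together came to 4.18 TPM in *Fabp4*-/- and 5.92 TPM in WT. Reads were seen for 14 of the 19 in *Fabp4*-/- and 16 in WT, while *Wnt3a*, *Wnt8a* and *Wnt8b* had 0 in both, which allows up to 3 read pairs. The 3 that reached 1 TPM were *Wnt5a*, *Wnt5b* and *Wnt6*, of which 1 (*Wnt6*) lay 2-fold or more below WT by TPM, 2 (*Wnt5a* and *Wnt6*) did so by normalised counts, and 0 lay that far above on either scale.

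**Figure D3:**
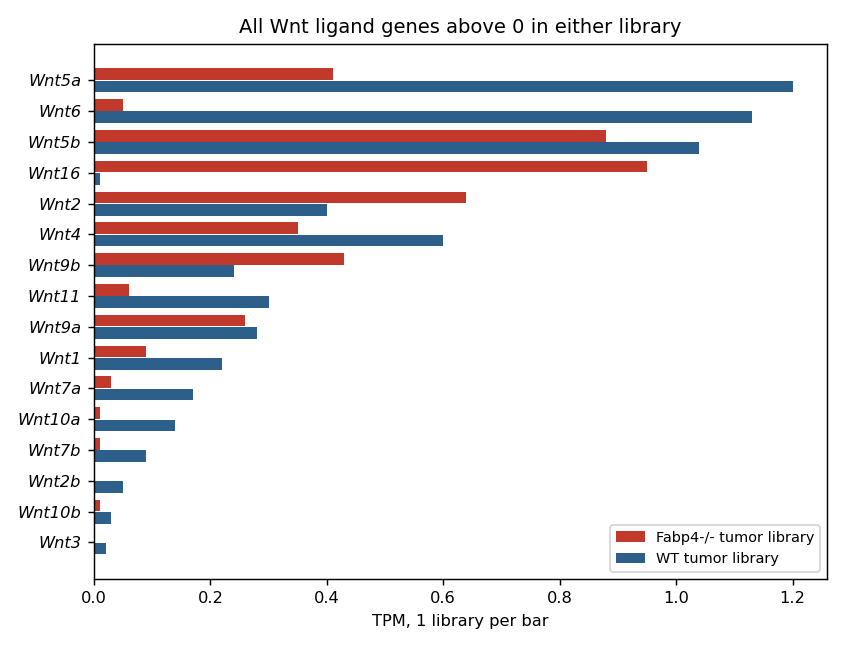
TPM of the 16 Wnt ligand genes above 0 in either library, the *Fabp4*-/- library above the WT library for each gene. *Wnt16*, *Wnt2* and *Wnt9b* have the longer bar in *Fabp4*-/-, and *Wnt5a* and *Wnt6*, the highest of the WT library, are at 0.41 and 0.05 TPM in *Fabp4*-/-.

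All 5 Wnt genes code for the short stretch in which the enzyme Porcupine attaches a fatty acid to a serine, the modification that the antagonist Notum removes. The 24 bases of that site are shown because this feature defines the ligands as 1 family and played no part in choosing them. They were read from GENCODE M21 transcripts of GRCm38 (mm10), 5′ to 3′ on the coding strand, with the serine codon in capitals. Each lies within 1 coding exon: *Wnt2* in exon 4 at chr6:18008792-18008815 (minus strand), *Wnt9b* in exon 4 at chr11:103731167-103731190 (minus strand), *Wnt5a* in exon 5 at chr14:28522515-28522538, *Wnt6* in exon 4 at chr1:74784172-74784195 and *Wnt16* in exon 4 at chr6:22297800-22297823.
Wnt2: tgtcatggtgtgAGTggctcctgt
Wnt9b: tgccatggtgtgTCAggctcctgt
Wnt5a: tgtcatggagtgTCTggctcctgt
Wnt6: tgccatgggcttTCGggttcctgc
Wnt16: tgccacggagttTCCggctcctgt
The serine is residue 212, 218, 244, 227 and 226 in that order, and each of the 5 genes uses a different codon for it. All 19 Wnt genes hold the site, and 14 of its 24 bases are shared by these 5. *Porcn*, the gene of Porcupine, was at 0.90 TPM in *Fabp4*-/- and 0.80 TPM in WT, from 81 and 59 read pairs. *Wls*, which carries acylated Wnt proteins to the cell surface, was at 2.03 TPM in *Fabp4*-/- and 4.14 TPM in WT. Of 8 genes for Wnt acylation and secretion 7 reached 1 TPM, and 0 of them were 2-fold apart by TPM + 0.5 or by normalised counts. *Wls* is just past 2-fold in TPM without the added 0.5.

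*Sfrp2* (ENSMUSG00000027996.13, chromosome 3, 83766321 to 83774316, plus strand), a secreted frizzled-related protein of fibroblasts, had the largest difference among the antagonists. It was at 0.02 TPM in *Fabp4*-/- and 5.88 TPM in WT, from 2 and 481 read pairs, a 187-fold lower normalised count (interval 51.5-fold to 1548-fold). Its log2 ratio of TPM + 0.5 was −3.62. *Sfrp1* (chromosome 8, 23411502 to 23449632, plus strand), of the same family, was at 0.06 TPM in *Fabp4*-/- and 0.68 TPM in WT, from 14 and 133 read pairs. It was 7.38-fold lower (interval 4.25-fold to 13.9-fold), the smallest difference of the 4 antagonists and the only 1 whose interval stays below 16-fold. *Dkk2* (chromosome 3, 132085292 to 132180304, plus strand), a Dickkopf ligand of LRP co-receptors, was at 0.03 TPM in *Fabp4*-/- and 1.15 TPM in WT, from 6 and 188 read pairs, and was 24.4-fold lower (interval 11.0-fold to 67.2-fold). *Apcdd1* (chromosome 18, 62922327 to 62953195, plus strand) was at 0.01 TPM in *Fabp4*-/- and 1.30 TPM in WT, from 1 and 157 read pairs, and was 122-fold lower (interval 21.6-fold to 4850-fold).

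All 4 antagonists were thus near the lower end of the table. Of the 13027 ranked genes, 16 had a lower ratio than *Sfrp2*, 24 than *Apcdd1*, 37 than *Dkk2* and 117 than *Sfrp1*. Deposited TPM values are rounded to 0.01, so the ratio of the lowest levels is better read from the read pairs. In the table *Wnt5a*, *Wnt6* and *Sfrp2* each overlap 1 gene on the opposite strand (*Gm2670*, *Gm29539* and *Gm26771*), and these 3 had at most 1 read pair in either library. Since the strand setting of the counting is unknown, reads of such a pair of genes cannot be told apart.

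The 250 bases before the RefSeq start sites are shown for *Sfrp2* and *Dkk2*, 2 antagonists of chromosome 3 with 2 and 6 read pairs in *Fabp4*-/-, and for *Wnt16*, the ligand that lay highest there. The sequences are those of GRCm38.p6, 5′ to 3′ on the gene's plus strand, for *Sfrp2* at chr3:83766071-83766320, for *Dkk2* at chr3:132085042-132085291 and for *Wnt16* at chr6:22287977-22288226. Capitals mark the letters TATAAA on the gene's strand and CCAAT on either strand, core promoter letters that were picked after the sequences were seen.
Sfrp2: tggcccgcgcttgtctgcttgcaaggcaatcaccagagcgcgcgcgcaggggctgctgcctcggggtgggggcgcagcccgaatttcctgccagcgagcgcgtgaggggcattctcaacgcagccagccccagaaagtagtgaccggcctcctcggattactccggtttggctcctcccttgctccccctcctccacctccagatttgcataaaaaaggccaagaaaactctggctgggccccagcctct
Dkk2: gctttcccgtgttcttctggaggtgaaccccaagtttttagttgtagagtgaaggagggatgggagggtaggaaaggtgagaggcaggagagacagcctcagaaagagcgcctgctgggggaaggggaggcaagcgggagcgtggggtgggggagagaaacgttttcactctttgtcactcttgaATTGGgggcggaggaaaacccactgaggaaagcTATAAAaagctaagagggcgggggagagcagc
Wnt16: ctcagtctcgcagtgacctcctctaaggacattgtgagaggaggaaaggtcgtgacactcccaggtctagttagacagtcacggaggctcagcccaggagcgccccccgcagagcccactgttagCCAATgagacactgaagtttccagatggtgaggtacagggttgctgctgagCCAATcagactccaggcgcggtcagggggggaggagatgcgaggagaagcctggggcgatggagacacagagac
Promoter windows were found for 6 of the 10 genes. The TCF/LEF letters CTTTGAA and CTTTGAT, through which β-catenin's partners bind, were in 0 of the 6 on either strand, against 7.48% of 32851 windows of the same length. CCAAT was in 4 of the 6 and in 33.8% of all windows, and 2 times in *Wnt16*. TATAAA was in *Dkk2* alone, against 7.59% of all windows. The windows of the 6 genes were 55.6% to 79.6% G or C and held 7 to 28 CG pairs, where the median of all windows was 52.4% and 6 pairs. These matches are letters in a window and say nothing of binding.

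The wider set of antagonists holds the chosen ones too, so its counts and medians are not a separate check on them. Of 20 genes, 7 reached 1 TPM, and on both scales 5 of these were lower by 2-fold or more and 0 higher by that much, with medians of −1.82 by TPM and −2.19 by normalised counts. 3 of the 5 are *Sfrp2*, *Dkk2* and *Apcdd1*, which were chosen with their ratios known, and the TPM median is the value of *Apcdd1*. The genes not chosen that reached 1 TPM were split. *Notum* and *Dkk3* were lower by 2-fold or more, with log2 ratios of −2.05 and −2.21 by normalised counts. *Frzb* and *Kremen1* were not, at −0.43 and 0.49. *Notum*, the Wnt deacylase that hepatocytes make under β-catenin, was at 5.64 TPM in *Fabp4*-/- and 34.5 TPM in WT. *Dkk3*, a divergent Dickkopf, was at 0.45 TPM in *Fabp4*-/- and 3.06 TPM in WT, from 76 and 451 read pairs. *Frzb* and *Kremen1* were within 2-fold by TPM + 0.5 and by normalised counts. They were at 1.18 and 3.23 TPM in *Fabp4*-/- and 2.36 and 3.42 TPM in WT, where *Frzb* is 2-fold apart without the added 0.5. The order of levels by TPM differed too, since *Sfrp2* was second to *Notum* in WT with 11.0% of the summed TPM, and *Kremen1* was second in *Fabp4*-/- with 29.0%. Among R-spondins, *Rspo1* had 1 read pair in *Fabp4*-/- and 10 in WT, and *Rspo2* and *Rspo4* had 0 in both, which leaves *Rspo3* as nearly all R-spondin RNA of either library.

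The receptor list was written by role, whereas the 4 antagonists were chosen with their ratios known, so the sets are not compared. Of 24 genes, 16 reached 1 TPM, and TPM put 3 of them lower and 1 higher by 2-fold or more. Normalised counts put 2 lower and 1 higher. The medians were −0.49 by TPM and −0.10 by normalised counts, close to those of all genes. *Lgr5*, the R-spondin receptor that is itself a β-catenin target, was at 0.59 TPM in *Fabp4*-/- and 7.14 TPM in WT. *Rnf43* and *Znrf3*, the ligases that R-spondins hold off and also β-catenin targets, were at 5.72 and 1.23 TPM in *Fabp4*-/- and 29.3 and 3.53 TPM in WT. *Lgr4*, the R-spondin receptor of hepatocytes at large, was at 6.38 TPM in *Fabp4*-/- and 6.40 TPM in WT. *Fzd8* was the receptor gene that was at least 2-fold higher, at 5.33 TPM in *Fabp4*-/- and 2.34 TPM in WT. *Lgr4* was named after its values were seen.

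Markers of cells that could carry the antagonists were lower in part. Quiescent and activated stellate cell markers had median log2 ratios of 0.11 over 13 genes and 0.39 over 11 genes by normalised counts + 1, with 1 and 0 lower and 1 and 4 higher by 2-fold or more. The lower quiescent marker was *Reln*, at 28.97 TPM in *Fabp4*-/- and 85.7 TPM in WT, while *Ecm1*, the most abundant of that list, was at 69.7 TPM in *Fabp4*-/- and 80.9 TPM in WT. Of the activated markers, the osteopontin gene *Spp1*, which bile duct cells also make, was at 985 TPM in *Fabp4*-/- and 468 TPM in WT. The collagen genes *Col3a1* and *Col1a1* were at 57.6 and 31.0 TPM in *Fabp4*-/- and 73.4 and 35.7 TPM in WT. Portal fibroblast markers had a median of −0.55 over 14 genes, 5 of them lower and 1 higher by 2-fold or more, and summed to 109 TPM in *Fabp4*-/- and 184 TPM in WT. The most abundant were not among the 5, since *Dcn*, the decorin gene, was at 66.8 TPM in *Fabp4*-/- and 107 TPM in WT (log2 ratio −0.11 by normalised counts), *Entpd2* at 14.9 TPM in *Fabp4*-/- and 12.9 TPM in WT (0.79) and *Col15a1* at 6.74 TPM in *Fabp4*-/- and 14.7 TPM in WT (−0.73). *Lum* and *Thy1*, the most abundant of the 5 and named after their values were seen, were at 3.33 and 2.65 TPM in *Fabp4*-/- and 12.3 and 12.1 TPM in WT. Which cells the *Thy1* RNA came from was not tested. Mesothelial markers were at least 2-fold lower for 8 of 9 genes, with a median of −2.20, and summed to 0.79 TPM in *Fabp4*-/- and 3.77 TPM in WT. *Krt7*, also a bile duct keratin and the only 1 of the 9 to reach 1 TPM, was at 0.19 TPM in *Fabp4*-/- and 1.48 TPM in WT. *Gpm6a* was not lower by 2-fold. It held 54 of the 101 mesothelial read pairs of *Fabp4*-/- and 73 of the 393 of WT. *Msln* had 20 in *Fabp4*-/- and 63 in WT. *Upk3b*, named after its values were seen, had 2 in *Fabp4*-/- and 46 in WT. *Upk1b*, *Lrrn4*, *Bnc1* and *Rspo1* had 1 read pair each in *Fabp4*-/- and 10 to 12 in WT. *Sfrp1* lay below 13 of 13 quiescent stellate, 14 of 14 portal fibroblast and 8 of 9 mesothelial markers.

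Of the markers of other cells, those of mast cells and of T and NK cells were lower along with the antagonists. The 7 mast cell markers all lay at least 2-fold lower, and they summed to 0.31 TPM in *Fabp4*-/- and 116 TPM in WT, from 14 and 5032 read pairs. Among T and NK cell genes 12 of 14 lay at least 2-fold lower, and their sum came to 11.3 TPM in *Fabp4*-/- and 90.95 TPM in WT. Macrophage markers had a median of 0.19, with 0 of 11 lower and 4 higher by 2-fold or more, and vascular smooth muscle markers a median of 0.27, with 1 of 7 lower and 3 higher. The macrophage markers that lay higher were *Clec4f*, *Marco*, *Vsig4* and *Timd4*, while *C1qa*, the most abundant of that list, was at 63.3 TPM in *Fabp4*-/- and 129.7 TPM in WT. The cholangiocyte markers went both ways, from −4.18 to 3.47. The adipocyte markers *Adipoq*, *Plin1* and *Retn* had 0 read pairs in *Fabp4*-/- and 1 each in WT, and *Lep* had 0 in both, while the other 4 of the 8 adipocyte markers, such as *Car3* and *Pparg*, are also made by liver cells. The tissue label was checked on hepatocyte markers, with *Alb*, the albumin gene, at 65261 TPM in *Fabp4*-/- and 49157 TPM in WT and a median log2 ratio of 0.87 by normalised counts. No marker list apart from that of mast cells held a median as low as the −5.22 of the 4 antagonists. *Sfrp1* lay above 7 of 7 mast cell and 4 of 14 T and NK cell markers. The antagonists were chosen with their ratios known, so nothing is read from their place beside the markers. The part of any of these cells in the levels of the antagonists, *Wnt5a* or *Wnt6* was not tested.

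**Figure D4:**
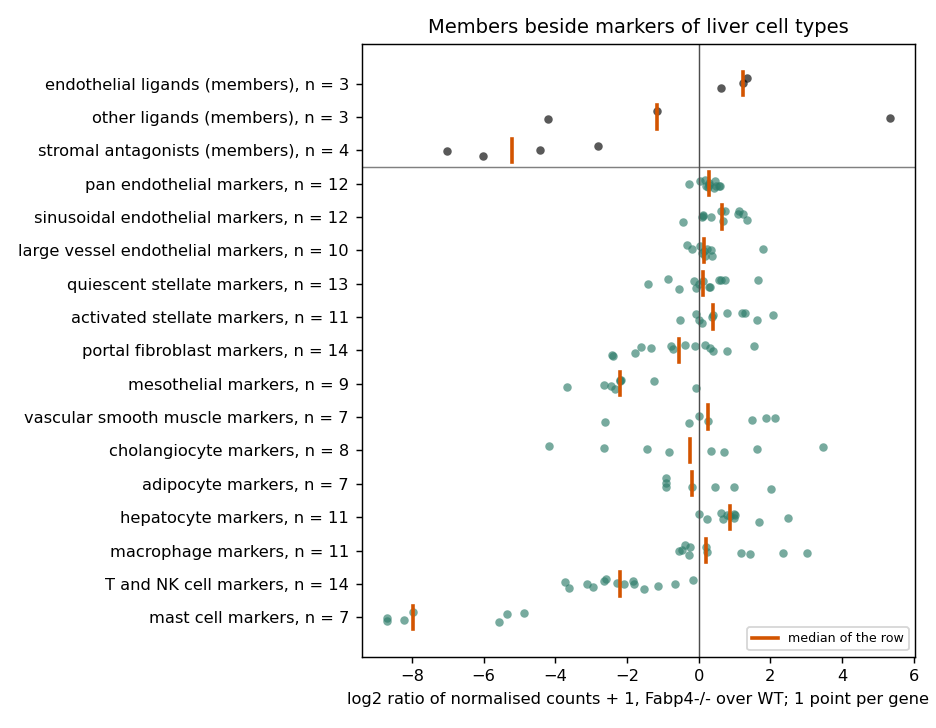
Log2 ratio of normalised counts + 1, *Fabp4*-/- over WT, for the 10 genes by role and for 14 lists of cell type markers, with 1 point per gene and an orange line at the median of each row. *Wnt2* and *Wnt9b* lie at the upper end of the endothelial markers, and the antagonists, with a median of −5.22, lie below the stellate, portal fibroblast and mesothelial medians of 0.11, 0.39, −0.55 and −2.20.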

How the data were processed

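PolyA RNA of liver tumors was sequenced by the authors as 151 bp read pairs, and the submitters' notes name STAR 2.5.2, RSEM 1.2.31 and mm10. The settings, strand and number of tumors are not given in the sources used here. TPM values were deposited by the authors. The deposited normalised counts are RSEM expected counts over 1 size factor per library, treated here as a signal. Read pairs were estimated by dividing a normalised count by the most frequent value above 0 (1.13 for *Fabp4*-/-, 0.882 for WT), and were whole to within 0.0001 for all 10 genes and for 86.5% and 86.0% of values above 0. The 4 deposited columns of fold changes, posterior probabilities and FDR were the authors' own comparison and were not used. A pseudocount of 0.5 TPM, or 1 for lists in normalised counts, a 1 TPM minimum for the higher library and a 2-fold difference were used. With a library at 0, 3 read pairs were taken as the floor. The genes and the 19 lists, written from textbook knowledge, were chosen with earlier results of these data known. Genes named were the 10, Wnt list genes at least 2-fold apart or highest, and up to 3 of the most abundant markers of a list, with some others named after their values were seen (among them *Wls*, *Porcn*, *Rspo1*, *Frzb*, *Kremen1*, *Oit3*, *Upk3b*, *Clec4f*, *Marco*, *Vsig4* and *Timd4*). Promoters came from RefSeq (GRCm38.p6) and transcripts from GENCODE M21, where 7 of the 10 genes have the position of the table. Intervals were tested on simulated data with counting error alone, so that test does not cover differences between animals. Software was matplotlib 3.10.9, scipy 1.17.1, pandas 2.3.3, numpy 2.4.6 and Python 3.11.15.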

Additional observations from a re-analysis of the deposited data

How the results depend on the processing

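No paired analysis was possible because only 1 library stands for a genotype. All 10 genes kept their sign under each of 7 settings: TPM with a pseudocount of 0.5, 0.1 or 1, scaling to the median, to the upper quartile or to totals that leave out the top 20 genes, and normalised counts. The median over all measured genes, −0.46 by TPM, was −0.04, −0.16 and −0.32 under those 3 scalings. Of 60 alternative ratios of the 10 genes, 47 moved from the ratio of TPM + 0.5 by at most 0.5 times the width of the gene's counting interval. That width is from the normalised counts and is widest where read pairs are few. *Wnt16*, at 1.51 by TPM + 0.5 and 5.33 by normalised counts + 1, is therefore among the 47, so the 47 do not measure stability. A further 13 moved by more, most of them on the switch to normalised counts, and 0 changed sign. The 4 genes at least 2-fold lower by TPM + 0.5 became 1 with a minimum of 5 TPM and 1 at 4-fold, since *Sfrp2* alone passes either on that scale. They became 6 by normalised counts with no minimum. The 0 genes at least 2-fold higher became 1 by TPM with no minimum (*Wnt16*), were 0 by normalised counts with the minimum, and became 3 when both were changed together, a setting chosen after seeing the data. *Wnt2* and *Wnt9b* pass 2-fold only when scale and minimum both change. The median of the endothelial ligands was 0.33 by TPM and 1.24 by normalised counts + 1, and that of the antagonists −1.73 and −5.22. A pseudocount of 0.1 TPM gave 0.57 and −3.47, and median centring 0.56 and −1.71. The minimums left under 3 endothelial ligands and under 3 other ligands, so their medians were not run. At this depth, ratios that rest on 1 or 2 read pairs (*Sfrp2*, *Apcdd1*, *Wnt6*, *Wnt16*) are known only within a wide interval.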

Other observations

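The nearest protein-coding genes on either side of these 10 were looked up. Of 20 such neighbours, 13 had at least 20 read pairs over both libraries, and 11 of these were within 2-fold by normalised counts. Among the 13557 genes of at least 1 TPM, 7.34% lay 2-fold or more lower and 5.63% higher, so most genes are within 2-fold. The 10 genes were chosen with their ratios known, so nothing is read from this count. *Tlr2*, next to *Sfrp2*, was at 1.29 TPM in *Fabp4*-/- and 3.41 TPM in WT. *Cped1* and *Fam3c*, on either side of *Wnt16*, were at 11.0 and 35.6 TPM in *Fabp4*-/- and 18.5 and 44.0 TPM in WT, so the level of *Wnt16* in *Fabp4*-/- was not matched by its flanks. The 2 exceptions were *Asz1*, beside *Wnt2*, with 5 read pairs in *Fabp4*-/- and 53 in WT, and *Cenpw*, 660.1 kb from *Rspo3*, with 71 in *Fabp4*-/- and 37 in WT. *Wnt10a*, 6.19 kb from *Wnt6* and of the same family, had 1 read pair in *Fabp4*-/- and 15 in WT.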
